A study of Mus musculus with 9 samples.

Results

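The transcripts described here are the 10 genes of the mouse G1 cyclins, their kinases and their direct regulators: the D cyclins Ccnd1, Ccnd2 and Ccnd3, the E cyclins Ccne1 and Ccne2, the kinases Cdk4 and Cdk6, the inhibitors Cdkn1a and Cdkn1b, and the phosphatase Cdc25a. They were chosen by gene symbol, and all 10 were found among the 52264 rows of the count table. All 10 also passed the low-count filter, which left 15366 tested genes. The samples were mouse embryonic stem cells (ESCs), the cultured pluripotent cells of the early embryo, with a β-catenin-/- genotype in every group, controls included. The cells were grown on feeder treated dishes and expanded in 2iL, a medium with 3 µM CHIR-99021, 1 µM PD03 and 40 ng/ml LIF, so that the control cells had also met CHIR-99021 before. They were then held overnight in N2B27 and treated for 30 minutes without inhibitor (control, n = 3 libraries), with BRD0705 (n = 3) or with CHIR (n = 3). BRD0705 is a GSK3α-selective inhibitor, CHIR-99021 inhibits GSK3α and GSK3β, and the labels give no dose for the 30-minute treatments. The labels name neither the clone nor the way the genotype was made, and they do not say whether the libraries of a group came from separate cultures, so the p-values below measure the spread between these libraries, which may be technical.

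D cyclins bind Cdk4 or Cdk6 and E cyclins bind Cdk2, and both pairs phosphorylate the retinoblastoma protein, which frees E2F transcription factors to switch on the genes of DNA replication. Cdkn1a (p21) and Cdkn1b (p27) bind and restrain these kinases, and Cdc25A removes the phosphates that hold Cdk2 inactive. GSK3 acts on several of these proteins after translation: it phosphorylates cyclin D1, cyclin E and Cdc25A and so marks them for ubiquitin-dependent destruction. Mouse ESCs are known for a short G1 phase with high cyclin E-Cdk2 activity. The libraries measured RNA only, and protein levels and phosphorylation were not measured.

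Library totals ran from 17359422 to 20773337 counts. The 14 pluripotent stem cell markers on a fixed list were all detected, with a summed level of 5850 to 6267 CPM (counts scaled to a common library total, with TMM-adjusted library sizes). All 16 fibroblast markers were detected too, none at 0 in any library, with a summed level of 5217 to 5952 CPM in control, 6081 to 6517 CPM with BRD0705 and 5773 to 6585 CPM with CHIR. Of 8 primitive endoderm markers, 6 passed the filter, and the summed level of all 8 was 171 to 190 CPM. Lamb1 was the highest at 151 to 165 CPM, with Dab2 next at 6.83 to 10.3 CPM. The lowest, Foxa2, had at most 0.0493 CPM in any library. Ctnnb1, the gene of β-catenin, was counted at 303 to 371 CPM, which tests no label because no wild-type group was included and the deleted part is not given. Across all tested genes, edgeR's quasi-likelihood test at a Benjamini-Hochberg adjusted p under 0.05 called 188 genes for BRD0705 against control (106 higher, 82 lower), 968 for CHIR against control (387 higher, 581 lower) and 1194 for BRD0705 against CHIR (738 higher, 456 lower). The split into higher and lower genes moved with the method: DESeq2 gave 469 higher and 459 lower for CHIR against control, a correction for GC content and length gave 1008 higher and 532 lower for the same comparison, and that correction gave 480 higher and 984 lower for BRD0705 against CHIR.

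The regions upstream of 3 of the genes are shown because Cdc25a is the one G1 gene that edgeR called, and the transcripts of both inhibitors, Cdkn1a and Cdkn1b, had log2 differences from control of similar size that did not pass. The sequences, and the gene positions given below, are from RefSeq on GRCm38.p6 (the mm10 build). All printed sequences are on the plus strand. A sequence was matched for 7 of the 10 genes, in 9 start sites. The unmatched genes are Ccnd1, Ccnd2 and Ccne2. Capitals mark matches, on either strand, to the letters of an E2F site (TTTGGCGC or TTTCCCGC), a CCAAT box (CCAAT), an Sp1 box (GGGCGG) or the p53 half-site, the 10-base consensus of the factor that controls Cdkn1a after DNA damage. The searches also covered the E-box (CACGTG), the cyclic AMP element (TGACGTCA), the TCF/LEF site (CTTTGAT) and the forkhead site (GTAAACA). The p53 half-site was added to the search after these sequences had been read.
Cdc25a, chr9:109875329-109875519: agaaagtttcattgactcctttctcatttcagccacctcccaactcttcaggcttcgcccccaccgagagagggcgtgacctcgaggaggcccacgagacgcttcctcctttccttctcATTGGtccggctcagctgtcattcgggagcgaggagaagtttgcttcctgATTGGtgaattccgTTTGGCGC
Cdkn1a, upstream start, chr17:29090729-29090978: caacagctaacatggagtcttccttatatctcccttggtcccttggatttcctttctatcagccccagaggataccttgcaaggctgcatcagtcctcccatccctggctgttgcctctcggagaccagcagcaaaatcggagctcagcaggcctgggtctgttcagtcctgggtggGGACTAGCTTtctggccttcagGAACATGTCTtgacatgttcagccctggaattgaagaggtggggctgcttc
Cdkn1a, downstream start, chr17:29093519-29093768: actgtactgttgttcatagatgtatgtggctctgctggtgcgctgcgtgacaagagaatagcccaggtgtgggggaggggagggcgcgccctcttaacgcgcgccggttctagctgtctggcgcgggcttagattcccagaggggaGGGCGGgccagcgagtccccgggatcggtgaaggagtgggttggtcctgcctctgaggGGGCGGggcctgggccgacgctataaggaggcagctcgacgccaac
Cdkn1b, chr6:134920151-134920400: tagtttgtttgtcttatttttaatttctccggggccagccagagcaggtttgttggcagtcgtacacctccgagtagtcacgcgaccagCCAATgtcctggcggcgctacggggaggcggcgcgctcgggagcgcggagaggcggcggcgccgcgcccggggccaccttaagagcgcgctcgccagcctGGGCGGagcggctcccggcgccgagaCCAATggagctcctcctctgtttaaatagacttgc

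The Cdc25a sequence holds 2 CCAAT boxes and 1 E2F match, TTTGGCGC, which begins 67 bases before the RefSeq start site at 109875579. It is printed to the end of that match, since the annotated gene begins inside it, and 2 overlapping Sp1 boxes follow before the start site. Among 32851 promoters of 250 bases, 0.417% hold TTTGGCGC, 0.895% hold TTTCCCGC, 33.8% hold CCAAT and 32.7% hold GGGCGG. Of the 7 matched G1 genes, Cdc25a was the only one with an E2F match of either spelling. Cdkn1a held 2 p53 half-sites before its upstream start, which 7.13% of promoters hold at least once, and 2 Sp1 boxes before its downstream start. Cdkn1b held 2 CCAAT boxes and 1 Sp1 box. Elsewhere in the group, Cdk4 carried 4 E-boxes and 1 TCF/LEF match, where 6.02% and 3.21% of all promoters hold such a match, and Cdk6 carried 1 E-box. No member window held the cyclic AMP element, which 1.55% of promoters hold, and 1 Ccnd3 window held a forkhead match, as do 3.17% of promoters. These matches describe letters and say nothing of binding in these cells.

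The 10 transcripts covered a wide range of levels, and that range was far larger than any difference between treatments. Levels of different genes are compared here per length, as CPM per kilobase of the gene's canonical transcript in GENCODE vM39, each as mean ± SD over the 9 libraries. These are levels of whole samples in which fibroblast markers were detected too, and the share of each transcript from feeder cells was not measured. The order, shares and ratios below rest on the canonical length, which can be far shorter than all annotated exons of a gene together. For Ccnd3 these lengths are 2018 and 9245 bases, and for Cdkn1a 1923 and 6045. For Cdk4 they are 2081 and 3440, and for Ccnd1 3796 and 4783. The order, shares and ratios with another length were not tested. By canonical length Ccnd3 stood first at 370 ± 15.4 (n = 9), followed by its kinase partner Cdk4 at 290 ± 13.4. Ccne1, the more abundant E cyclin, was at 103 ± 4.93 and Cdkn1a at 79.0 ± 6.80. Ccnd1 was at 55.7 ± 2.23 and Cdc25a at 29.5 ± 2.06. Ccnd2 at 8.30 ± 0.610, Cdkn1b at 6.23 ± 0.591 and Ccne2 at 5.48 ± 0.475 formed a low group above Cdk6, the last at 1.85 ± 0.146. Each gene was above the next in all 9 libraries, except Cdkn1b, which was above Ccne2 in 8 of 9 and overlapped it in range. Cdk4 stood at 138 to 187 times the per-kilobase level of Cdk6, the other kinase partner of D cyclins, in the individual libraries. Among D cyclins Ccnd3 made up 84.1 to 86.1% of the summed per-kilobase level, Ccnd1 12.2 to 13.7% and Ccnd2 1.73 to 2.24%. Ccne1 was 16.6 to 24.9 times Ccne2 per kilobase.

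**Figure D1:**
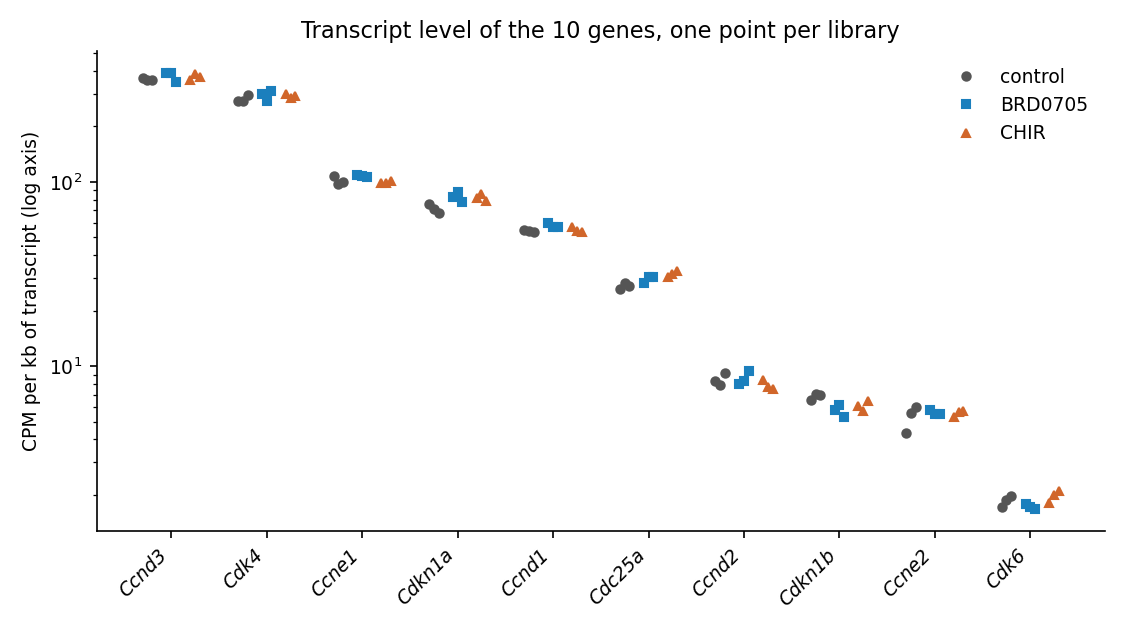
Level of each G1 gene in CPM per kilobase of its canonical transcript (log axis), with 1 point for each of the 9 libraries and genes ordered by that mean level. The distance from Ccnd3, with a mean of 370, to Cdk6, with a mean of 1.85, is far larger than the spread between control, BRD0705 and CHIR libraries of any gene.

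Across the treatments the G1 genes moved little. BRD0705 against control gave 0 of 10 calls by edgeR, with 3 of 10 at an unadjusted p under 0.05 (Cdkn1a, Cdkn1b and Cdc25a), beside 1.22% of all tested genes called (0.690% higher and 0.534% lower) and 15.9% at an unadjusted p under 0.05. DESeq2 called 1 of 10, Cdkn1a, beside 3.18% of all genes. CHIR against control gave 1 of 10 calls, Cdc25a, which was higher, beside 6.30% of all genes called (2.52% higher and 3.78% lower). The same 3 genes were at an unadjusted p under 0.05 for CHIR, beside 20.5% of all genes, and DESeq2 called 2 of 10, Cdc25a and Cdkn1a, beside 6.04%. The 2 inhibitors' comparisons with control share the same 3 control libraries, so a likeness between them is not independent. BRD0705 against CHIR gave 0 of 10 calls by edgeR and by DESeq2, beside 7.77% of all genes called by edgeR (4.80% higher and 2.97% lower) and 7.35% by DESeq2. In that comparison 2 of 10, Ccne1 and Cdk6, were at an unadjusted p under 0.05, beside 22.5% of all genes.

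The median log2 fold change over the 10 genes was 0.07 for BRD0705, where the median of all tested genes was -0.0038, and 0.05 for CHIR, where that of all genes was -0.0091. The median absolute log2 difference was 0.10 for both the 10 genes and all genes with BRD0705, and 0.07 for the 10 genes beside 0.11 for all genes with CHIR. Over the 3 comparisons the 95% interval bound of a G1 gene farthest from 0 was -0.42 on the log2 scale, for Cdkn1b with BRD0705. Group values of 4 of 10 genes did not overlap between BRD0705 and control (Ccnd1, Cdkn1a, Cdkn1b and Cdc25a), beside 20.2% of all genes. For CHIR the count was 3 of 10, beside 25.1%, and for BRD0705 against CHIR 2 of 10, beside 26.7%.

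**Figure D2:**
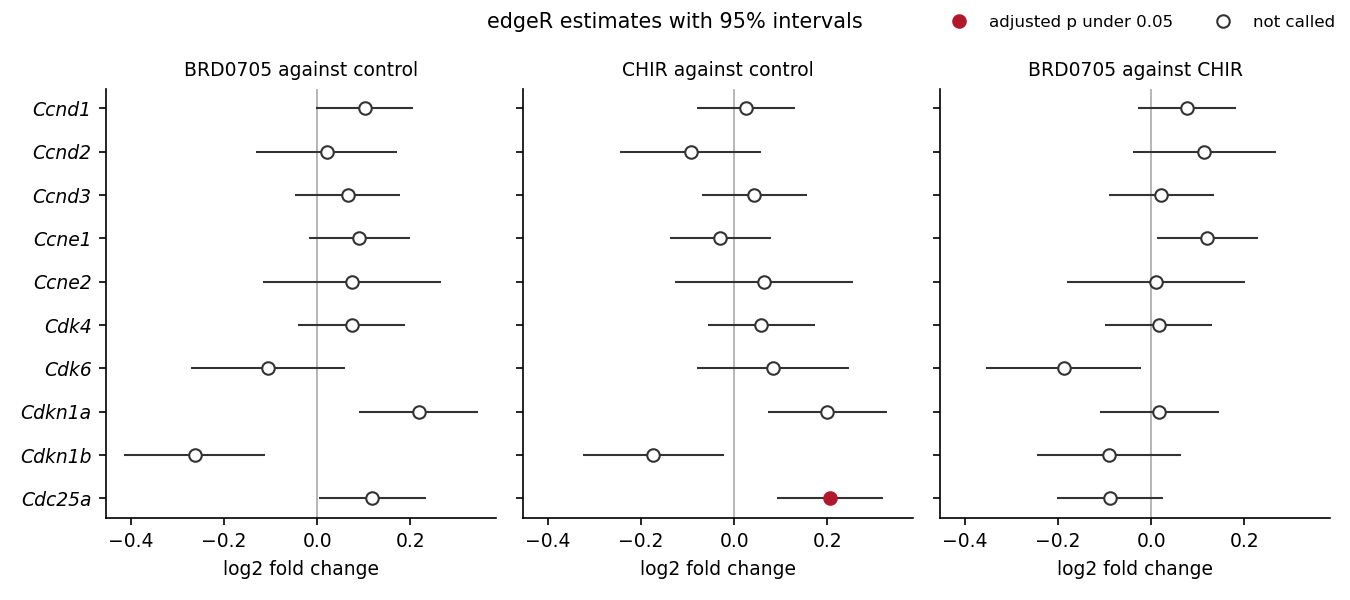
Log2 fold change of the 10 G1 genes in the 3 comparisons, as edgeR estimates (points) with 95% intervals (lines). Cdc25a in CHIR against control, at 0.21, is the one filled point, an adjusted p under 0.05, and most intervals cross 0.

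Cdc25a (chromosome 9, 109875518 to 109893895) encodes the phosphatase that activates Cdk2 at the G1/S boundary. It measured 112.6, 120.9 and 117.0 CPM in control, 121.4, 129.5 and 129.7 CPM with BRD0705 and 129.7, 134.9 and 140.0 CPM with CHIR. All 3 CHIR libraries lay above all 3 control libraries, and the BRD0705 libraries lay between, all above the highest control library, with the highest of them level with the lowest CHIR library. With CHIR Cdc25a rose by 15.4% over control, a log2 fold change of 0.21 ± 0.05 (SE; 95% interval 0.09 to 0.32; edgeR adjusted p = 0.0286). With BRD0705 the log2 difference was 0.12 ± 0.05 (SE; edgeR adjusted p = 0.296), and between both inhibitors it was -0.09 with an interval of -0.20 to 0.03 (edgeR adjusted p = 0.363). The call for CHIR depended on single libraries: without control replicate 1, control replicate 3, CHIR replicate 2 or CHIR replicate 3, edgeR's adjusted p was 0.0820, 0.0810, 0.0866 and 0.0976, with a log2 difference of 0.19 to 0.21. With the fibroblast marker level of each library as a covariate the log2 difference was 0.27 and the edgeR adjusted p 0.0389. That level tended to be higher in treated libraries, as given below, so fits with this covariate cannot fully separate it from treatment.

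Cdkn1a (chromosome 17, 29090979 to 29100722) encodes p21, the Cdk inhibitor induced by p53. Its levels were 145.5, 137.5 and 129.6 CPM in control, 159.9, 170.3 and 149.9 CPM with BRD0705 and 157.3, 165.6 and 151.3 CPM with CHIR. Every treated library was above every control library, and the 2 inhibitor groups overlapped fully. The log2 difference from control was 0.22 ± 0.06 (SE) for BRD0705 and 0.20 ± 0.06 for CHIR, with edgeR adjusted p of 0.0811 and 0.0579, so neither passed. DESeq2 called both, at adjusted p of 0.0153 and 0.0217. Between the inhibitors the log2 difference was 0.02, with an interval of -0.11 to 0.14. With the fibroblast marker level as a covariate the log2 differences were 0.15 for BRD0705 and 0.14 for CHIR (edgeR adjusted p = 0.626 and 0.373).

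Cdkn1b (chromosome 6, 134920401 to 134925525) encodes p27, the other inhibitor of this family in the group. It was at 29.8, 32.1 and 31.8 CPM in control, 26.3, 27.9 and 24.0 CPM with BRD0705 and 27.8, 26.0 and 29.2 CPM with CHIR. Every treated library was below every control library, in the opposite direction to Cdkn1a. The log2 difference was -0.26 ± 0.07 (SE; edgeR adjusted p = 0.0767) for BRD0705 and -0.17 ± 0.07 (edgeR adjusted p = 0.174) for CHIR, and neither passed. Without the low-count filter the BRD0705 difference passed (edgeR adjusted p = 0.0432). Between the inhibitors the log2 difference was -0.09, with an interval of -0.24 to 0.06. With the fibroblast marker level as a covariate the log2 differences were -0.16 for BRD0705 and -0.09 for CHIR (edgeR adjusted p = 0.667 and 0.681).

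**Figure D3:**
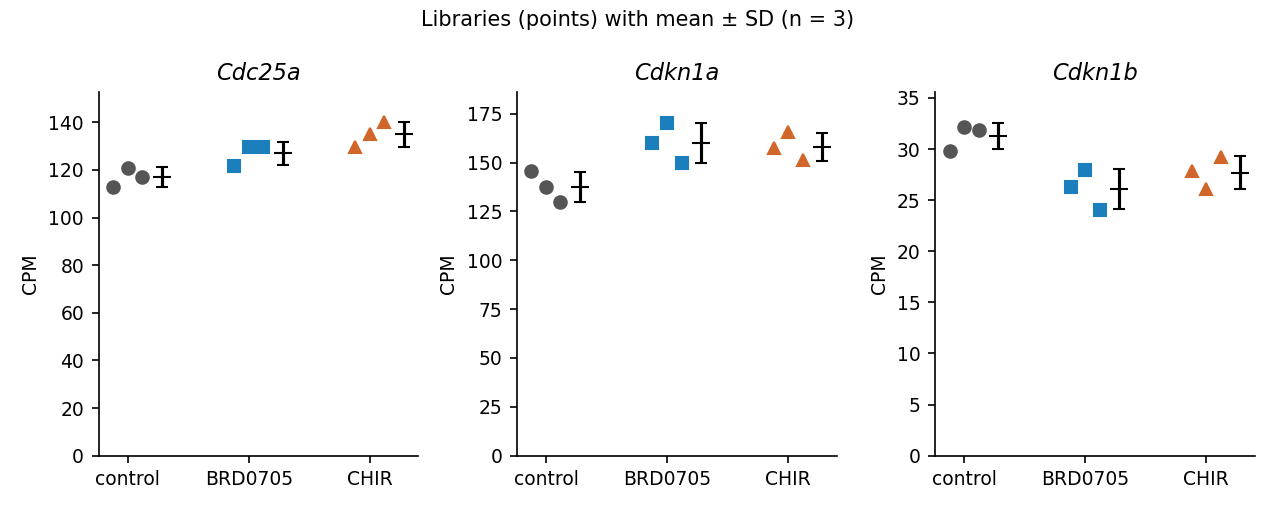
CPM of Cdc25a, Cdkn1a and Cdkn1b in each library (points), with the group mean and SD (bars, n = 3) and an axis from 0. The treated libraries of Cdc25a and Cdkn1a sit above the control libraries, and those of Cdkn1b sit below them.

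The ratio of the 2 inhibitors' counts, chosen after their values were seen, follows from these levels. Cdkn1a to Cdkn1b was 4.89, 4.28 and 4.07 in control, 6.09, 6.10 and 6.24 with BRD0705 and 5.66, 6.36 and 5.17 with CHIR. No treated library fell to the range of the control libraries, and the BRD0705 libraries were closely spaced. Fibroblast marker levels were also above control in every BRD0705 library and in 2 of the 3 CHIR libraries. Their mean log2 CPM was 6.77, 6.55 and 6.64 in control, 6.89, 6.83 and 6.86 with BRD0705 and 6.90, 6.90 and 6.65 with CHIR. Estimates were above 0 for 15 of 16 markers in both comparisons with control. By edgeR 2 were called higher for BRD0705 (Col1a1 and Col5a1) and 3 for CHIR (Col1a1, Col5a1 and Col6a2), beside 0.690% and 2.52% of all genes. DESeq2 called 5 and 4 of the 16, beside 3.18% and 6.04%. In bulk samples, fewer cells of a type and less RNA per cell cannot be told apart. The part of fibroblast RNA in the Cdc25a, Cdkn1a and Cdkn1b differences was not tested. GC content also moved with the libraries: the Spearman correlation, across genes, of GC content with the library's deviation from the mean was -0.29 to 0.19 in control, 0.05 to 0.26 with BRD0705 and -0.12 to -0.05 with CHIR. The Cdkn1b transcript has 43.1% GC, the lowest of the 10 genes, and Cdkn1a has 54.4%, where the median of all tested genes is 50.6%. With a correction for GC content and length the BRD0705 differences were -0.21 for Cdkn1b and 0.21 for Cdkn1a on the log2 scale.

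**Figure D4:**
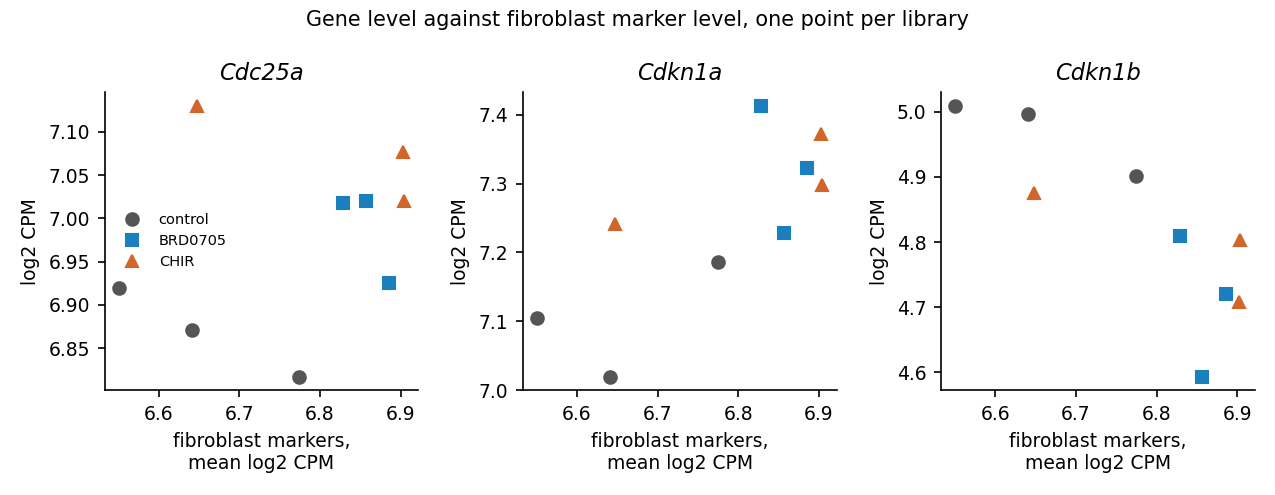
Log2 CPM of Cdc25a, Cdkn1a and Cdkn1b (vertical axes) against the mean log2 CPM of the 16 fibroblast markers (horizontal axis), with 1 point for each of the 9 libraries. The BRD0705 libraries and the other CHIR libraries lie above all control libraries for both the fibroblast markers and Cdc25a. CHIR replicate 3, at 6.65 on the horizontal axis, lies among the control libraries for the fibroblast markers and has the highest Cdc25a level. The part of fibroblast RNA in these differences was not tested.

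Among the D cyclins, Ccnd1 (chromosome 7, 144929931 to 144939831), the classical Wnt-responsive cyclin whose protein GSK3 marks for export and decay, was at 206.9, 206.5 and 202.6 CPM in control, 227.8, 217.2 and 216.1 CPM with BRD0705 and 217.1, 206.7 and 203.0 CPM with CHIR. The BRD0705 libraries were all above control, and the CHIR libraries overlapped it. The log2 difference of 0.10 ± 0.05 (SE) for BRD0705 did not pass (edgeR adjusted p = 0.330), and for CHIR it was 0.03 with an interval of -0.08 to 0.13. Ccnd3 (chromosome 17, 47505051 to 47599689), the most abundant D cyclin, was at 738.7, 719.4 and 726.1 CPM in control, 792.1, 785.8 and 707.7 CPM with BRD0705 and 723.3, 774.7 and 752.9 CPM with CHIR. The third BRD0705 library fell below all control libraries while the other two lay above them, so the groups overlapped. Intervals of the log2 difference were -0.05 to 0.18 for BRD0705 and -0.07 to 0.16 for CHIR. Ccnd2 (chromosome 6, 127125162 to 127152188), the least abundant D cyclin, was at 52.3, 50.2 and 57.8 CPM in control, 50.3, 52.9 and 59.2 CPM with BRD0705 and 53.4, 48.9 and 47.7 CPM with CHIR. Its groups overlapped too, and the intervals were -0.13 to 0.17 for BRD0705 and -0.25 to 0.06 for CHIR.

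Ccne1 (chromosome 7, 38097984 to 38107490), the cyclin that activates Cdk2 late in G1, was at 224.2, 202.0 and 207.6 CPM in control, 228.0, 225.0 and 221.6 CPM with BRD0705 and 204.8, 204.9 and 210.9 CPM with CHIR. The first control library stood within the BRD0705 range, and the other two were near the CHIR libraries. Intervals against control were -0.02 to 0.20 for BRD0705 and -0.14 to 0.08 for CHIR. All BRD0705 libraries exceeded all CHIR libraries, with a log2 difference of 0.12 ± 0.05 (SE) that did not pass (edgeR adjusted p = 0.172). Ccne2 (chromosome 4, 11190433 to 11204779), the other E cyclin, was at 22.5, 29.1 and 31.2 CPM in control, 30.0, 28.8 and 28.5 CPM with BRD0705 and 27.6, 29.2 and 29.8 CPM with CHIR. The first control library was low, and the control range enclosed all treated values. It had 457 to 634 counts per library, and the intervals were -0.12 to 0.27 for BRD0705 and -0.13 to 0.26 for CHIR.

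The kinases showed no called difference. Cdk4 (chromosome 10, 127063535 to 127067288), the more abundant kinase transcript, was at 572.8, 569.8 and 614.1 CPM in control, 622.6, 574.8 and 651.9 CPM with BRD0705 and 624.3, 597.9 and 607.1 CPM with CHIR. Its groups overlapped, with intervals of -0.04 to 0.19 for BRD0705 and -0.06 to 0.17 for CHIR. Cdk6 (chromosome 5, 3341004 to 3531008) was at 20.1, 21.9 and 22.9 CPM in control, 20.7, 20.1 and 19.5 CPM with BRD0705 and 21.03, 23.2 and 24.6 CPM with CHIR. All BRD0705 libraries were below all CHIR libraries, while both groups overlapped control. The log2 difference between the inhibitors was -0.19 ± 0.08 (SE), with an interval of -0.35 to -0.02, and did not pass (edgeR adjusted p = 0.161).

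Whether the counting used strand is not given, and 9 of the 10 genes share exonic bases with a gene on the opposite strand in GENCODE vM39, from 70 bases for Ccne1 to 2315 for Ccnd1. Reads of the 2 genes of a pair cannot then be told apart. No overlap was listed for Cdc25a. For Cdkn1a the opposite genes are the noncoding RNAs Dino and Gm64878, with 504 and 249 shared bases and no values used here, and for Cdkn1b it is Gm44238, with 237 shared bases and 0 to 1 counts per library. The opposite partner of Ccnd1, LTO1, had 92 to 152 counts per library beside 3713 to 4550 for Ccnd1. Other opposite partners had more counts. Ints8, which shares 852 bases with Ccne2, had 940 to 1319 counts per library beside 457 to 634 for Ccne2. Bysl, which shares 369 bases with Ccnd3, had 2159 to 2636 beside 13772 to 14986. Tspan31, which shares 646 bases with Cdk4, had 887 to 1180 beside 10104 to 13728. How far such reads entered the levels was not tested. Ccnd3 has a processed pseudogene of 96.25% identity, which had 0 to 1 counts.

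The rest of the G1/S machinery was read from lists of related genes, with counts of calls by edgeR. Of 25 tested other cyclins, Cdks, Cdk inhibitors and their modifiers, 0 rose and 1 fell with BRD0705, beside 0.690% higher and 0.534% lower over all tested genes. With CHIR 0 rose and 3 fell, beside 2.52% and 3.78%. Between the inhibitors 0 of 25 passed by edgeR or by DESeq2, with 2 at an unadjusted p under 0.05, beside 22.5% of all genes. The median log2 fold changes against control were -0.07 and -0.0061. Cks2, a small subunit that binds Cdks, measured 57.1, 49.3 and 42.4 CPM in control, 34.1, 32.7 and 39.3 CPM with BRD0705 and 39.0, 39.9 and 35.1 CPM with CHIR. All treated libraries were below all controls, which were themselves widely spread. It fell with BRD0705 (log2 fold change -0.49 ± 0.09 SE; edgeR adjusted p = 0.0162) and with CHIR (-0.38 ± 0.09; edgeR adjusted p = 0.0173). The BRD0705 call was lost without control replicate 2 (edgeR adjusted p = 0.0731), BRD0705 replicate 1 (0.132) or BRD0705 replicate 2 (0.0818), and the CHIR call without control replicate 1 (0.0994), control replicate 2 (0.0603) or CHIR replicate 3 (0.0816). The GC and length correction gave -0.35 for BRD0705 (edgeR adjusted p = 0.112). Processed pseudogenes nearly identical to part of Cks2 had at most 2 counts each. Cks2 also shares 83 exonic bases with the snoRNA Gm22806 on the same strand and 420 with the noncoding RNA Gm61408 on the opposite strand. How reads of shared sequence were assigned is not given, so its count is uncertain to that extent.

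Ccng2, an atypical cyclin that rises when cells leave the cycle, was at 19.0, 18.9 and 18.2 CPM in control, 15.1, 15.8 and 16.5 CPM with BRD0705 and 15.3, 12.9 and 12.5 CPM with CHIR. It fell with CHIR (-0.46 ± 0.09 SE; edgeR adjusted p = 0.00382), and it passed in all 9 fits that left out 1 library. BRD0705 libraries were below control as well, but the log2 difference of -0.24 did not pass (edgeR adjusted p = 0.171). Ccnf, an F-box cyclin of a ubiquitin ligase, had a control mean of 286 ± 10.1 CPM and a CHIR mean of 252 ± 4.89 CPM (SD, n = 3). It fell by 0.18 on the log2 scale (edgeR adjusted p = 0.0385), a call that only 2 of the 9 fits without 1 library kept, those without BRD0705 replicate 1 or 3. The adjusted p in the other fits was 0.0562 to 0.172, and the GC and length correction gave 0.0826.

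Of 14 tested pocket protein and E2F genes, 0 passed for BRD0705 against control, with 6 at an unadjusted p under 0.05 by edgeR and 1 called by DESeq2, beside 15.9% and 3.18% of all genes. With CHIR 1 fell, beside 3.78% of all genes, and 3 were higher with BRD0705 than with CHIR, beside 4.80%. Their median log2 differences were 0.13, 0.05 and 0.02. E2f2, an activator of replication genes, was at 21.3, 24.4 and 24.5 CPM in control, 25.9, 25.5 and 26.7 CPM with BRD0705 and 15.7, 18.4 and 18.5 CPM with CHIR. The CHIR libraries were the lowest and the BRD0705 libraries the highest, with no overlap between any groups. It fell with CHIR (-0.42 ± 0.08 SE; edgeR adjusted p = 0.00484) and was 0.57 ± 0.08 higher on the log2 scale with BRD0705 than with CHIR (edgeR adjusted p = 3.19e-04), and both calls held in all 9 fits without 1 library. With the fibroblast covariate the CHIR difference was -0.32 (edgeR adjusted p = 0.117). E2f8, an atypical repressor, was at 87.4, 85.4 and 91.5 CPM in control, 109.8, 101.7 and 98.9 CPM with BRD0705 and 83.8, 84.1 and 89.6 CPM with CHIR. The BRD0705 libraries were above all others, by 0.27 ± 0.06 (SE) over CHIR (edgeR adjusted p = 0.00795) and by 0.23 over control, where edgeR's adjusted p was 0.0552 and DESeq2's 0.00858. The difference from CHIR was lost without BRD0705 replicate 1 (edgeR adjusted p = 0.0614) or CHIR replicate 2 (0.0503). E2f1 was 0.25 higher with BRD0705 than with CHIR (edgeR adjusted p = 0.0392), and of the 9 fits without 1 library those without control replicate 1 or BRD0705 replicate 2 kept the call. The GC and length correction gave 0.14 (edgeR adjusted p = 0.176).

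**Figure D5:**
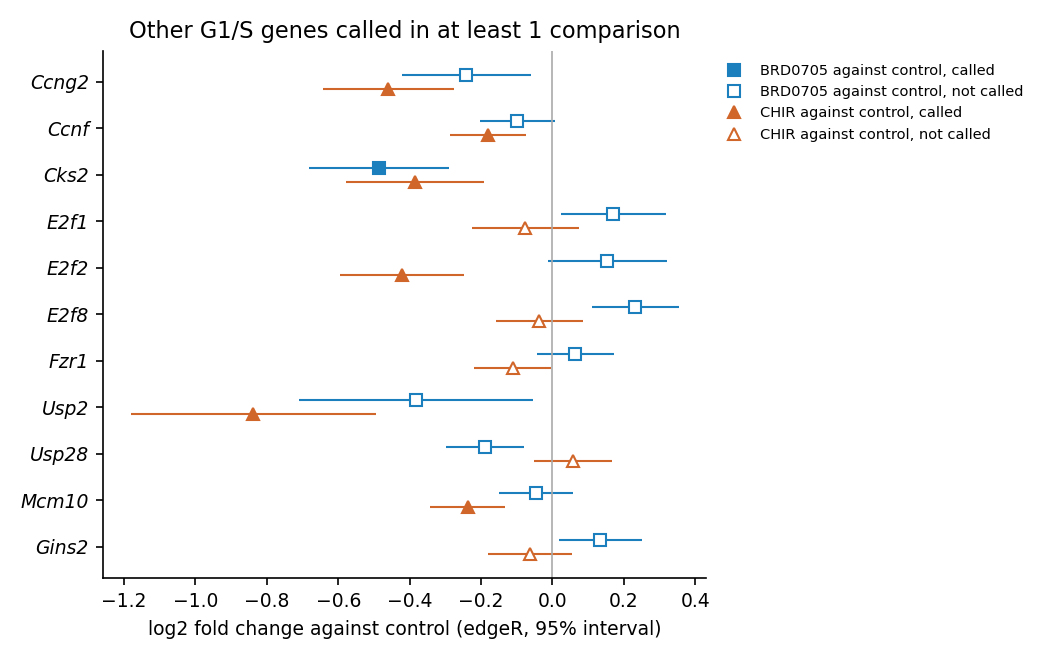
Log2 fold change against control, with 95% intervals from edgeR, of the 11 other G1/S genes that passed in at least 1 of the 3 comparisons; squares are BRD0705, triangles CHIR, and filled symbols an adjusted p under 0.05. For E2f2 the CHIR estimate is -0.42 and the BRD0705 estimate 0.15, on opposite sides of 0.

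Genes of the ubiquitin ligases that act on G1 proteins, with the deubiquitinases Usp2 and Usp28, gave 0 calls of 20 tested for BRD0705, beside 1.22% of all genes. By edgeR 5 were at an unadjusted p under 0.05 and DESeq2 called 2, beside 15.9% and 3.18%. For CHIR 1 was lower, beside 3.78%, and between the inhibitors 1 was higher and 1 lower, beside 4.80% and 2.97%. Their median log2 differences were -0.05, 0.0031 and -0.05. Usp2, a deubiquitinase of cyclin D1, was at 6.41, 5.28 and 6.55 CPM in control, 5.46, 4.95 and 3.66 CPM with BRD0705 and 3.34, 3.41 and 3.44 CPM with CHIR. Every CHIR library was below every other library. It fell with CHIR (-0.84 ± 0.16 SE; edgeR adjusted p = 0.00466), and that call held in all 9 fits without 1 library. For BRD0705 the difference was -0.38 (edgeR adjusted p = 0.237), and it was -0.21 without BRD0705 replicate 3. Usp28, a deubiquitinase that counteracts Fbxw7, was at 106.0, 111.6 and 104.5 CPM in control, 96.4, 93.1 and 93.1 CPM with BRD0705 and 110.0, 113.7 and 111.7 CPM with CHIR. The BRD0705 libraries were the lowest, and their difference from CHIR of -0.25 ± 0.05 (SE) passed (edgeR adjusted p = 0.00692), also in all 9 fits without 1 library. Against control the difference was -0.19 (edgeR adjusted p = 0.0786; DESeq2 adjusted p = 0.0324). Fzr1, the Cdh1 activator of the anaphase-promoting complex in G1, was 0.18 higher with BRD0705 than with CHIR (edgeR adjusted p = 0.0433), and of the 9 fits without 1 library those without control replicate 1 or BRD0705 replicate 2 kept the call. It was also lost without the low-count filter (edgeR adjusted p = 0.0589) and with only the groups compared (0.0548), and the GC and length correction gave 0.06 (0.518).

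Of 30 E2F target genes of DNA replication, 0 were called for BRD0705 against control, with 4 at an unadjusted p under 0.05 by edgeR and 1 called by DESeq2, beside 15.9% and 3.18% of all genes. With CHIR 1 fell, beside 3.78% of all genes, and 2 were higher with BRD0705 than with CHIR, beside 4.80%. Their median log2 differences were -0.02, 0.01 and -0.0053, close to those of all tested genes. Mcm10, a DNA replication factor, was at 202.0, 194.3 and 197.5 CPM in control, 199.1, 188.8 and 187.1 CPM with BRD0705 and 164.2, 171.5 and 167.9 CPM with CHIR. The CHIR libraries were below all others. It fell with CHIR (-0.24 ± 0.05 SE; edgeR adjusted p = 0.00759), in all 9 fits without 1 library too. BRD0705 exceeded CHIR by 0.19 ± 0.05 (edgeR adjusted p = 0.0256), a call kept without any 1 control library or BRD0705 replicate 3 and lost without any of the other 5 libraries, with adjusted p of up to 0.134. With the GC and length correction it was 0.13 (edgeR adjusted p = 0.0853). Gins2, a subunit of the replicative helicase, was 0.20 ± 0.06 (SE) higher with BRD0705 than with CHIR (edgeR adjusted p = 0.0375), a call kept without any 1 control library or CHIR replicate 3, and with the GC and length correction it was 0.11 (edgeR adjusted p = 0.196). Gins2 shares 2758 exonic bases with Gse1 on the opposite strand, and Gse1 had 2523 to 3121 counts per library. How far Gse1 reads entered the Gins2 level was not tested.

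The 3 genes whose log2 CPM followed Cdc25a most closely over the 9 libraries, among 9563 genes whose mean log2 CPM was 3 or more, were Erlec1 (Pearson r = 0.96), Nkapd1 (0.95) and Gabarap (0.94). Erlec1, a lectin of the endoplasmic reticulum, was at 15.5, 16.3 and 16.0 CPM in control, 17.7, 19.4 and 19.4 CPM with BRD0705 and 19.4, 20.9 and 20.5 CPM with CHIR. Gabarap, an autophagy protein of the Atg8 family, was at 82.6, 88.0 and 86.6 CPM in control, 91.0, 99.6 and 92.8 CPM with BRD0705 and 101.0, 102.9 and 102.6 CPM with CHIR. Nkapd1 was at 33.2, 35.1 and 34.3 CPM in control, 33.6, 37.2 and 37.2 CPM with BRD0705 and 36.8, 39.7 and 41.8 CPM with CHIR. Nkapd1 shares 3461 exonic bases with Timm8b on the opposite strand, and Timm8b had 623 to 936 counts per library. How far Timm8b reads entered the Nkapd1 level was not tested. Erlec1, Nkapd1 and Gabarap were picked for following Cdc25a, so a shared order of groups follows from the choice. The 9 points share their library and its depth, and the correlation is a description.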

How the data were processed

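RNA sequencing of 9 mouse ESC libraries was analysed, 3 in each of 3 groups taken from the labels' treatment and library names. The authors deposited raw counts per gene symbol as whole numbers. Per the submitters' processing notes, RSEM, DESeq2 and the mm10 build were used, with no role stated, so the counts may be rounded estimates. Aligner, annotation and strand setting are not given in the sources used here. The labels' protocols name a TruSeq kit with RiboZero, while the molecule label is polyA RNA. The authors' normalized table was not used.

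The count tests used edgeR 4.0.16 (R 4.3.3): TMM scaling, filterByExpr with a minimum count of 10, and the 2-sided quasi-likelihood F test in one fit of 3 group means, with 6 residual degrees of freedom and Benjamini-Hochberg adjustment over all 15366 tested genes, threshold 0.05. The script was tested on simulated data. Log2 CPM used a prior count of 2. Depth was 17359422 to 20773337 counts per library, and between-replicate variation exceeded counting noise (chi-square per degree of freedom 3.40 to 8.05 over 9 pairs), so no pair was a repeat deposit.

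The G1 genes, the other gene lists and the tests were chosen with earlier results of these data known. All 10 G1 genes are named. Of each other list (other cyclins and Cdks; pocket proteins and E2F factors; ubiquitin ligase genes; E2F target replication genes; fibroblast, pluripotent and primitive endoderm markers), up to 6 genes past the threshold in any comparison are named. For a called member the 3 genes of highest Pearson correlation are named. Among 14 tested pluripotency markers 0 were called for BRD0705 (5 at an unadjusted p under 0.05, 2 by DESeq2), beside 1.22% of all genes (15.9% and 3.18%). With CHIR 2, Esrrb and Klf4, were higher, beside 2.52%, while 3, Esrrb, Klf4 and Tdgf1, were lower with BRD0705 than with CHIR, beside 2.97%. For CHIR against control 5 of the 14 were at an unadjusted p under 0.05 by edgeR and DESeq2 called 4, beside 20.5% and 6.04%. Only 6 of these 14 CHIR estimates were above 0. Their median log2 difference was -0.0089, beside -0.0091 for all genes. Among 6 tested primitive endoderm markers 0 were called against control by edgeR or DESeq2. For BRD0705 and CHIR 0 and 2 were at an unadjusted p under 0.05 by edgeR, beside 15.9% and 20.5% of all genes. With BRD0705 2, Sox7 and Pdgfra, were higher than with CHIR, beside 4.80%.

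Gene positions and upstream sequences came from RefSeq on GRCm38.p6. Transcript length, GC content and overlaps came from GENCODE vM39 on GRCm39 by symbol (49494 of 52264 rows, 10 more by an older symbol; 98.0% of tested genes had a GC value), and copies of at least 95% identity over 200 bases from BLAST+ 2.17.0. Alternatives were a replicate block, DESeq2 1.42.0, DESeq2 size factors in edgeR, no low-count filter, only the groups compared, a GC and length correction, the fibroblast marker level as a covariate, and leaving out each library.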

Additional observations from a re-analysis of the deposited data

How the results depend on the processing

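Cdc25a kept its direction and its call for CHIR in 7 of 7 alternatives other than leaving out single libraries (edgeR or DESeq2 adjusted p 0.00537 to 0.0389) and in 5 of 9 fits without 1 library. Of the G1 genes, 2 were called for CHIR under the replicate block, DESeq2, DESeq2 size factors, no low-count filter, only the groups compared and the GC and length correction, the second being Cdkn1a each time. Over all genes the same settings, in that order, called 973, 928, 966, 1329, 953 and 1540 for CHIR. The 928 of DESeq2 are 6.04% of the 15366 tested genes. For BRD0705, 1 was called by DESeq2, beside 3.18% of all genes. Without the low-count filter 2 were called, in a fit that tested more genes and called 609. Leaving out 1 library gave 0 to 1 called G1 genes for BRD0705, beside 21 to 305 calls over all genes. For CHIR it gave 0 to 2, beside 514 to 1070. Over all genes, BRD0705 against control gave 489 calls with DESeq2, 609 without the filter, 109 with the GC and length correction and 0 with the fibroblast covariate (edgeR), and CHIR against control gave 1540 and 289 with the last 2. Without 1 library the calls ranged from 21 to 305 for BRD0705 (lowest without BRD0705 replicate 1), 514 to 1070 for CHIR (lowest without CHIR replicate 2) and 616 to 1313 between the inhibitors (lowest without BRD0705 replicate 1). The cause of these shifts was not tested.

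With the fibroblast covariate, calls were lost at log2 differences of -0.65 for Cks2 with BRD0705 (edgeR adjusted p = 0.0640), -0.19 for Ccnf (0.166) and -0.32 for E2f2 (0.117) with CHIR, and 0.23 for E2f1 (0.0605) and 0.17 for Fzr1 (0.0630) between the inhibitors, beside -0.49, -0.18, -0.42, 0.25 and 0.18 without it. The marker level tended to be higher in treated libraries, so in comparisons with control this fit cannot fully separate it from treatment. Small log2 differences that did not pass changed sign. Under the GC and length correction these were Ccne1 (0.017) and E2f8 (0.015) for CHIR, Fzr1 (-0.019) for BRD0705, and Ccnd3 (-0.071), Ccne2 (-0.037), Cdk4 (-0.038), Cdkn1a (-0.037) and Ccnf (-0.0061) between the inhibitors. With the fibroblast covariate they were Ccnd2 (-0.034) and Cdk6 (0.016) for BRD0705 and Ccnd1 (-0.0062) for CHIR. Leaving out 1 library gave a range across 0 for Ccne2 (-0.051 to 0.18) and Ccnd2 (-0.041 to 0.089) with BRD0705, for Ccne1 (-0.052 to 0.021) and Ccne2 (-0.057 to 0.17) with CHIR, and for Ccnd3 (-0.013 to 0.074), Ccne2 (-0.024 to 0.031), Cdkn1a (-0.031 to 0.065) and Cdk4 (-0.025 to 0.062) between the inhibitors.

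Same-numbered libraries did not deviate together (mean r -0.0012 over 9 pairs, range -0.09 to 0.08, across genes), so the numbers are not taken to pair them. The replicate block gave 222, 973 and 1177 calls for BRD0705, CHIR and between the inhibitors, and 0, 2 and 0 among the G1 genes. Between the inhibitors it lost the calls of E2f1 (edgeR adjusted p = 0.0524) and Fzr1 (0.0508). The lowest G1 gene by counts, Cdk6, had 354 to 464 per library.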
